A study of Homo sapiens with 12 samples.

Results

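AsPC-1 is an established human pancreatic cancer cell line that grew from tumour cells in ascites fluid, and its response to the phorbol ester PMA was measured here on 6 of the 12 microarrays of the series. The members were chosen by their labels alone, as the 3 untreated AsPC-1 arrays and the 3 PMA arrays. The series as a whole asked which genes PMA changes in AsPC-1 and in BxPC-3, a line from a primary pancreatic tumour. All 6 AsPC-1 cultures were held overnight in medium with 2.5% fetal calf serum. The treated cultures then received 1 µM PMA, dissolved in DMSO (0.1%), for 4 h, and the sources used here do not give whether the untreated cultures received the vehicle. Each group holds 1 array from each of passages 8, 10 and 12, so that every PMA array has an untreated partner of the same passage. Signals and differences below are given in the order of passages 8, 10 and 12. A difference is PMA minus untreated on the scale of log2(signal + 3), on which 1 is about a doubling and the change of dim genes is understated.

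PMA stands in for diacylglycerol, the lipid second messenger that activates protein kinase C. In epithelial cells, active protein kinase C is known to switch on the RAS, RAF and ERK kinase cascade and the NF-kB pathway. Their first targets are immediate-early genes, which encode AP-1 proteins (FOS and JUN families), EGR factors and feedback phosphatases, followed by cytokines, chemokines and the proteases that cells use to cross matrix. In many epithelial cancer lines phorbol esters also slow the cell cycle through the inhibitor p21, the product of CDKN1A.

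One passage stood apart before any treatment. Among 7029 genes with a mean AsPC-1 signal of at least 100, the untreated arrays of passages 8 and 10 lay at least 2-fold apart in 751 (10.7%) and those of passages 8 and 12 in 789 (11.2%), against 11 (0.156%) between passages 10 and 12. After PMA these counts were 1705 (24.3%), 1773 (25.2%) and 21 (0.299%). In BxPC-3 they ran from 44 to 102 genes between untreated arrays and from 55 to 156 between PMA arrays. Across all genes the levels of passages 10 and 12 correlated at r = 0.972 untreated and 0.970 after PMA, which shows only that the arrays were not identical. Pairs of BxPC-3 passages gave 0.968 to 0.979. Whether passages 10 and 12 share more of their culture history than either does with passage 8 was not tested, and the p-values take the 3 passages as equally independent. GAPDH probe sets gave a 3' to 5' ratio of 0.987 to 1.03 on the untreated AsPC-1 arrays and 1.01 to 1.10 after PMA, with the highest value on the PMA array of passage 8. For ACTB the ratio was 1.79 to 2.32 on the 6 AsPC-1 arrays. Of 10 ductal epithelial markers, 9 had a named probe set and each of the 9 passed a signal of 50 on at least 1 array, KRT18 reaching 11090. All 10 endothelial and all 8 acinar and islet markers with a probe set stayed under 50, as did 9 of 10 fibroblast and 5 of 8 leukocyte markers. The stromal matrix gene LUM (up to 3396) and the lysozyme gene LYZ (up to 2666) were bright, while the leukocyte marker PTPRC peaked at 9.86. The summed signal of fibroblast markers was 1587 to 3294 untreated and 1399 to 3460 after PMA, and that of leukocyte markers 2037 to 2832 and 2064 to 2550. Of the tested markers 0 passed the test for PMA, beside 5.62% of all genes tested.

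Of 16099 genes tested, 904 (5.62%) passed at an adjusted p under 0.05 in a limma fit that blocked on passage. After PMA 449 were higher (2.79%) and 455 lower (2.83%). The change exceeded 2-fold in 568 of them. The 3 PMA arrays lay all above the 3 untreated ones for 975 genes (6.06%) and all below them for 1348 (8.37%). Without passage 8 the count was 2785 (17.3%), 933 higher (5.8%) and 1852 lower (11.5%), with 879 of the 904 among them. It fell to 122 without passage 10 and to 118 without passage 12. Without the block 316 genes passed (1.96%), 200 higher (1.24%) and 116 lower (0.721%), and 314 of them were among the 904. The median difference over all genes tested was -0.10, and after centring the arrays on their medians it was 0.13, when 824 genes passed as higher and 204 as lower. The balance of rises and falls therefore depends on the scaling. Of 124 called genes chosen for description, 117 kept their call after median centring, 124 without passage 8, 70 without the block, 39 without passage 10 and 38 without passage 12. MMP1, MMP10, PLAU, ITGA5, CDKN1A, DUSP1, FOSL1, CXCL8, CCL20, IL1A, IL1B, IL1R1, PRDM1, PI3, THBD, LAMB3, BMP2, ETS1, MXD1, CCNA2 and KIF15 passed with any single passage left out. For ESRP1, ITGA1, LRP6, NFKB2, SOCS3, SYNRG and VAV3, and for ACKR3, AXIN2, DLL1, IL1A, RHOB, RIBC1 and SMAD6, another probe set above the filter had the opposite sign.

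The passages answered to different extents. In passage 8 alone, 828 genes (5.14%) were at least 2-fold higher and 1171 (7.27%) at least 2-fold lower, against 1412 (8.77%) and 1781 (11.1%) in passage 10 and 1485 (9.22%) and 1883 (11.7%) in passage 12. Among the 7029 bright genes the differences of passages 10 and 12 correlated at r = 0.878, those of passages 8 and 10 at 0.296 and those of passages 8 and 12 at 0.261, as a description across genes. The 3 pairs of BxPC-3 passages gave 0.645 to 0.807 over the same genes. The 449 genes that rose had median differences of 0.69, 1.37 and 1.33, and 152 of them changed by under 1.41-fold in passage 8. The 455 that fell had medians of -0.58, -1.27 and -1.40, with 184 under 1.41-fold in passage 8. Since the test used all 3 passages, these medians describe the called genes and test nothing.

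**Figure D1:**
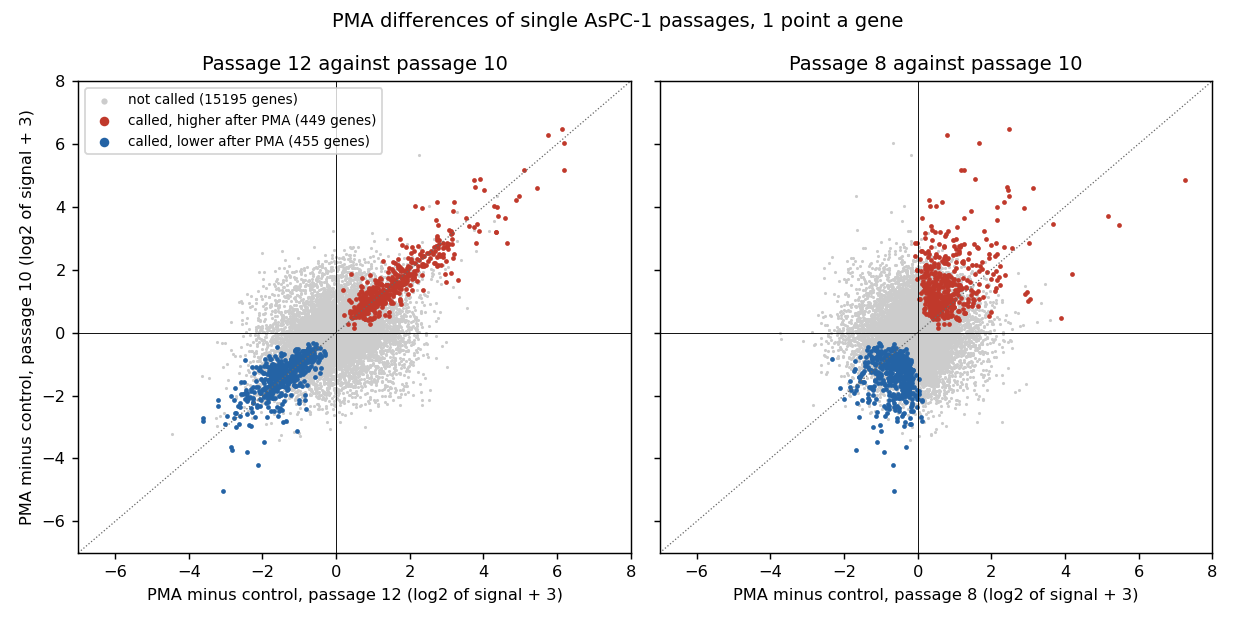
PMA minus untreated difference (log2 of signal + 3) of each of 16099 genes, passage 10 on the vertical axis against passage 12 (left) and passage 8 (right) on the horizontal, with called genes in red (449 higher) and blue (455 lower) and the dotted line marking equal differences. Called genes lie along the dotted line on the left, and on the right many that are far from 0 in passage 10 sit near 0 in passage 8.

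Genes were also sorted by the passages in which they differed. At least 2-fold in all 3 passages were 110 genes higher and 76 lower. At least 2-fold in passages 10 and 12 and under 1.41-fold in passage 8 were 265 higher and 500 lower. The same pattern with passage 10 as the odd one held 45 and 37 genes, and with passage 12 it held 43 and 48. Passage 8 alone reached 2-fold for 172 genes higher and 293 lower, passage 10 alone for 208 and 248, and passage 12 alone for 219 and 225. In BxPC-3 260 genes were higher and 326 lower in all 3 passages, and leaving any 1 passage out gave at most 151 higher and 75 lower genes. Each of these counts compares 1 array with 1 array, so it describes these cultures.

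**Figure D2:**
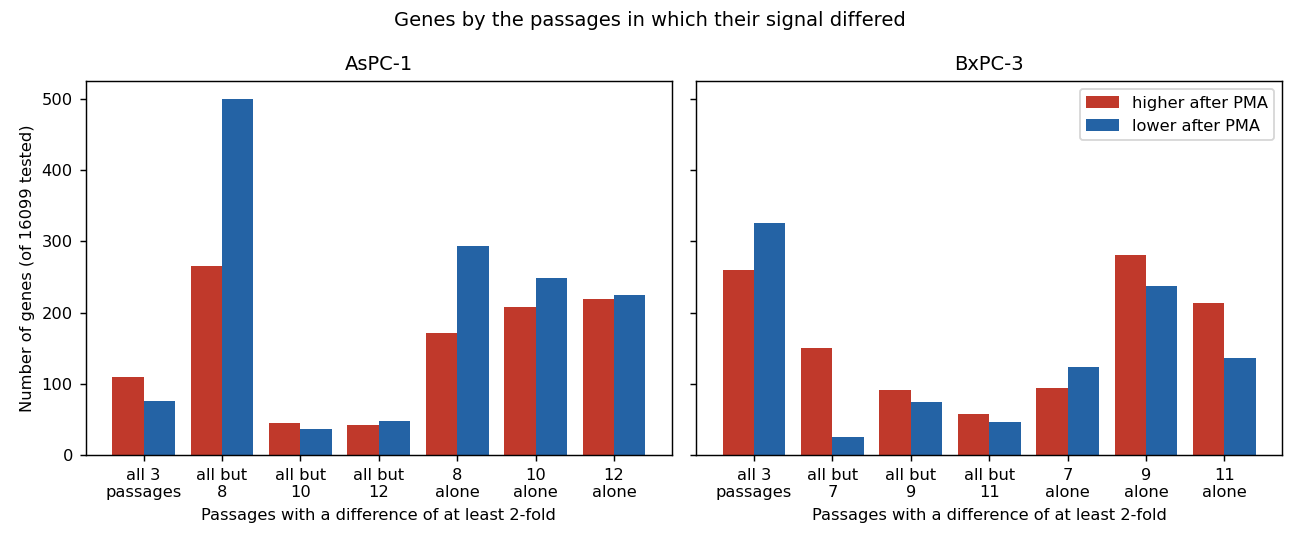
Number of genes, of 16099 tested, whose signal was at least 2-fold higher (red) or lower (blue) after PMA in all 3 passages, in all but the named passage (under 1.41-fold there) or in the named passage alone, for AsPC-1 (left) and BxPC-3 (right). The tallest AsPC-1 bars stand over all but passage 8, with 265 genes higher and 500 lower.

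Genes of the first transcriptional wave rose, mostly in passages 10 and 12. Of 21 tested EGR, NR4A, KLF and other immediate-early genes 10 rose (47.6%) and 0 fell, and of 13 AP-1 and small MAF genes 5 rose (38.5%) and 0 fell. Over all genes 2.79% rose and 2.83% fell. The median differences of the EGR, NR4A and KLF list were 0.13, 1.55 and 1.79 in the passages, and those of the AP-1 list were 0.15, 1.79 and 1.94, beside -0.04, -0.13 and -0.09 over all genes. No EGR, NR4A or KLF list member reached a 2-fold rise in passage 8, while 14 did in passage 10 and 14 in passage 12. Without passage 8, 15 and 9 members rose and 1 of each list fell, when 5.8% of all genes rose and 11.5% fell. Without passage 10 or without passage 12, limma called 1 rise in each list. Changes below are given ± the SE of the fit, which is pooled over both lines and can understate the scatter between AsPC-1 passages.

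EGR1, a zinc-finger factor made within minutes of ERK activation, had 1140.2, 674 and 570.2 untreated and 1458, 7159.7 and 7028 after PMA. Its differences were 0.35, 3.40 and 3.62, and the fitted change was 2.46 ± 0.50 (SE, adjusted p = 0.0199). The 3 PMA arrays all lay above the 3 untreated ones, but the PMA array of passage 8 stood close to its partner, and EGR1 did not pass without passage 10 (adjusted p = 0.198) or without passage 12 (adjusted p = 0.183). CSRNP1, an AXIN-induced nuclear factor, gave 49.9, 47.2 and 46.8 untreated and 63.6, 815 and 964 after PMA, and the PMA arrays of passages 10 and 12 were far above all others. The differences were 0.33, 4.03 and 4.28 and the change 2.88 ± 0.58 (adjusted p = 0.0198). IER5, another immediate-early gene, moved in each passage, from 262, 272 and 294 to 520.0, 1848 and 1947 (differences 0.98, 2.75 and 2.71). EGR3 (2.07 ± 0.43), EGR4 (1.83 ± 0.35), IER2 (1.43 ± 0.24), KLF6 (1.25 ± 0.25), KLF9 (1.34 ± 0.31), KLF10 (1.17 ± 0.28) and IER3 (1.07 ± 0.23) rose as well. KLF10, a gene first known as induced by TGF-beta, had differences of -0.01, 1.71 and 1.79, so passage 8 held no rise.

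Within the AP-1 family the members split by passage. FOS, the founding subunit, had 113, 55.5 and 44.2 untreated and 84.4, 686 and 912 after PMA, lower with PMA in passage 8 and at least 12 times higher in passages 10 and 12. The fitted change of 2.47 ± 0.66 did not pass (adjusted p = 0.0543). Without passage 8 it was 3.92, a description only, since FOS was among the genes picked for moving in passages 10 and 12 and not in 8. FOSB went the same way, with 22, 1.93 and 2.68 untreated and 12.6, 318 and 409.8 after PMA and differences of -0.68, 6.02 and 6.18 (adjusted p = 0.0514). JUN gave differences of -0.90, 2.35 and 2.57 (adjusted p = 0.165), and NR4A3, an orphan nuclear receptor of the first wave, -1.68, 4.34 and 4.37 (adjusted p = 0.171). ATF3, a stress-induced partner of JUN, rose by 2.78 ± 0.63 (adjusted p = 0.032), from 32.3, 49.3 and 42.6 to 35, 649.5 and 1092, and its groups overlapped. That call was lost without the block (adjusted p = 0.128). FOSL1, which encodes FRA1, moved in every passage. It had 146, 505 and 469.7 untreated and 324, 3075 and 3017 after PMA, its differences were 1.13, 2.60 and 2.68 and its change was 2.14 ± 0.26 (adjusted p = 0.00171). The groups overlapped, since the untreated arrays of passages 10 and 12 stood above the PMA array of passage 8, and without the block the adjusted p was 0.138. FOSL2 (1.06 ± 0.20), JUNB (1.60 ± 0.36) and MAFF (1.43 ± 0.21) completed the 5 rises, and FOSL2 had differences of 0.89, 0.97 and 1.33, close to each other.

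The EGR1 promoter is shown because serum response factor acts through CArG boxes upstream of it. The window runs from 250 bases before to 50 after the start in RefSeq's GRCh38.p14 annotation (chr5:138465229-138465528, plus strand), with 2 CArG boxes in capitals that begin 105 and 83 bases before the start. Motifs were searched on both strands, and the CArG box was found in 1.20% of the promoters of tested genes (12738 with an entry) and in 11.8% of the 17 promoters of the EGR, NR4A and KLF list. A match describes the letters and was not tested as a binding site.
EGR1: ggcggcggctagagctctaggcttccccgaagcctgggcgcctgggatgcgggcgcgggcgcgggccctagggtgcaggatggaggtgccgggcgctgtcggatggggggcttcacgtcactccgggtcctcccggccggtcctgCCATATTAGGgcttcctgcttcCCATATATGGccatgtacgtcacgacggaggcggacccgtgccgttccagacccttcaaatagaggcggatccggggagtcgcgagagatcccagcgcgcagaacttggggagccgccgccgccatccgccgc

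**Figure D3:**
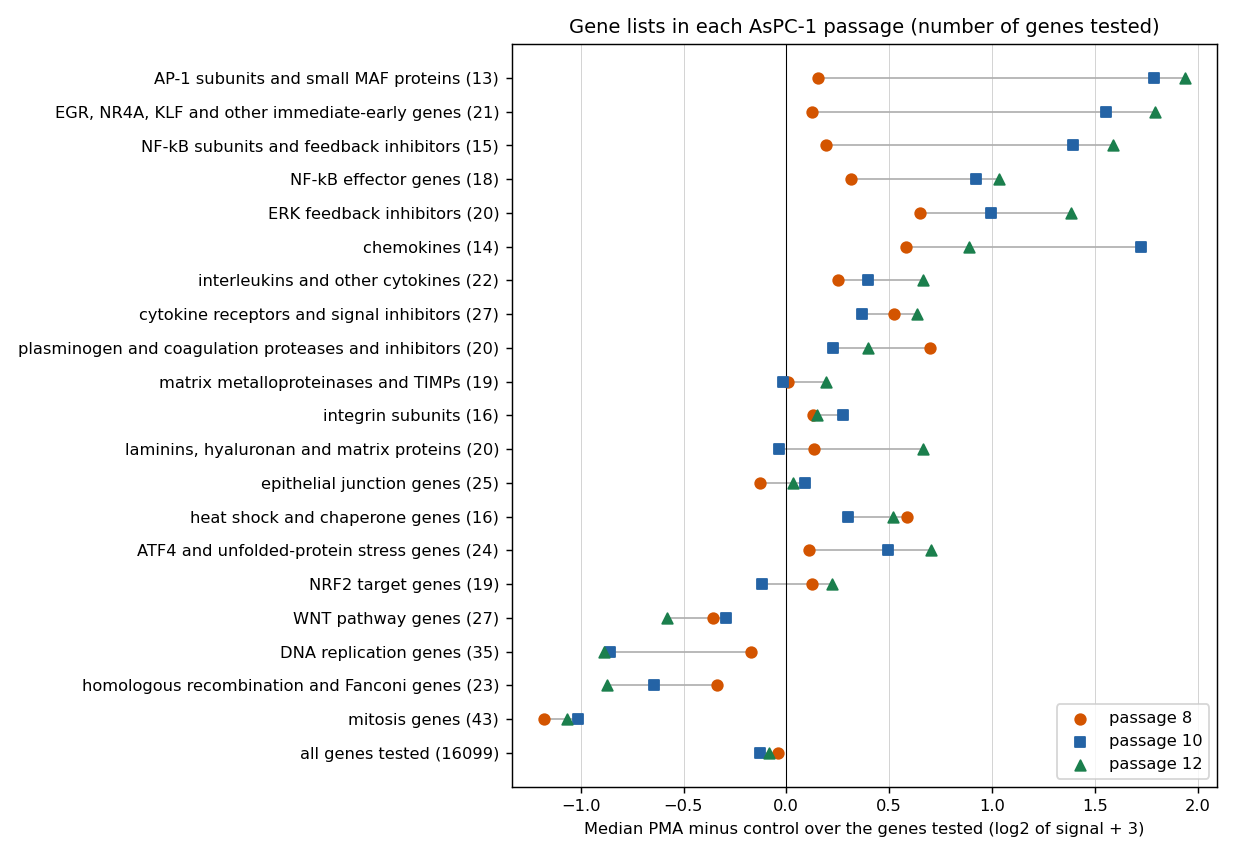
Median PMA minus untreated difference (log2 of signal + 3) of the tested members of 20 gene lists and of all 16099 genes, with passage 8 as circles, passage 10 as squares and passage 12 as triangles. The AP-1, EGR, NR4A and KLF and NF-kB subunit lists lie between 0.13 and 0.20 in passage 8 and between 1.39 and 1.94 in the others, while mitosis genes lie between -1.18 and -1.01 in all 3.

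Feedback inhibitors of ERK signalling rose as well, with a clear median difference in passage 8 too. Of 20 tested, 12 rose (60%) and 1 fell (5%), beside 2.79% and 2.83% of all genes. The list medians were 0.65, 1.00 and 1.39. The nuclear phosphatase DUSP1 had 226, 386 and 317 untreated and 1022, 6257 and 6562 after PMA, differences of 2.16, 4.01 and 4.36 and a change of 3.51 ± 0.33 (adjusted p = 0.000403). All PMA arrays were above all untreated ones, passage 8 included. DUSP5, also a nuclear phosphatase, rose by 2.13 ± 0.23 (differences 1.60, 2.72 and 2.06), and DUSP2 by 2.67 ± 0.35 from untreated signals of 1.7, 4.68 and 1.97 that lie under the level used to filter dim genes. ERRFI1, which inhibits the EGF receptor from inside the cell, had 893, 1613 and 1081 untreated and 2511, 7195 and 7400.4 after PMA and rose by 2.14 ± 0.19 (adjusted p = 0.000343). SPRY4 (2.13 ± 0.23, differences 1.39, 2.52 and 2.48), SPRY2 (1.77 ± 0.27), DUSP10 (1.62 ± 0.29) and DUSP6 (1.34 ± 0.23), which dephosphorylates ERK in the cytoplasm, rose too. SPRY1, of the same Sprouty family, fell by 1.17 ± 0.30 (adjusted p = 0.0448), from 574, 160.0 and 191 to 395, 68.4 and 53.1, and its groups overlapped. Without passage 10 or without passage 12, 5 members of the list rose.

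NF-kB genes followed the immediate-early pattern. Of 15 subunits and feedback inhibitors 6 rose (40%) and 0 fell, beside 2.79% and 2.83% of all genes, with medians of 0.20, 1.39 and 1.59. Without passage 8 all 15 rose, when 5.8% of all genes did. Without passage 10 or without passage 12 the count was 1. TNFAIP3, the A20 deubiquitinase that shuts the pathway off, had 149, 331 and 319 untreated and 439, 2373 and 2669 after PMA and rose by 2.47 ± 0.27 (adjusted p = 0.000874). Its differences were 1.54, 2.83 and 3.05, and the one in passage 8 was the largest of the 6 that rose. The inhibitor NFKBIA had 221, 427 and 345 untreated and 335, 2274 and 2581 after PMA, its PMA array of passage 8 lay below the untreated array of passage 10, so the groups overlapped (change 1.96 ± 0.33, adjusted p = 0.00896, without the block 0.0982). NFKB1 (0.21, 2.01 and 1.94), NFKB2 (0.45, 2.11 and 1.96), CYLD (0.57, 1.88 and 1.94) and TNIP1 (0.19, 1.78 and 1.75) had differences of this shape. REL, a subunit that did not pass, had -0.56, 1.80 and 2.62 (adjusted p = 0.122).

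Of 18 NF-kB effector genes 7 rose (38.9%) and 1 fell (5.56%), beside 2.79% and 2.83% of all genes. The leukocyte adhesion receptor ICAM1 had 18.4, 27.2 and 23.7 untreated and 23.5, 553 and 786 after PMA, about level in passage 8 and at least 20 times higher in the others. Its change was 3.13 ± 0.64 (adjusted p = 0.0212), and this call was lost without the block (adjusted p = 0.0975), without passage 10 (0.203) and without passage 12 (0.186). The mitochondrial superoxide dismutase SOD2 rose in all 3 passages, from 324, 141 and 175 to 711, 961 and 824 (2.03 ± 0.29, adjusted p = 0.00394). RIPK2, a kinase of innate signalling, had nearly equal differences of 0.89, 0.97 and 0.96. PTGS2, the inducible cyclooxygenase, stayed between 0.179 and 4.34 on all 6 arrays and did not pass. In BxPC-3 it changed by 2.16 ± 0.31, and the responses of the lines differed (difference -2.32 ± 0.43, adjusted p = 0.0389). PTGS2 passed the filter only through BxPC-3, so this difference sets the BxPC-3 response against AsPC-1 signals under the filter level.

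Among chemokines that attract neutrophils the differences of passages 10 and 12 far exceeded that of passage 8. CXCL8, the principal neutrophil attractant, had 29.8, 70.9 and 96.8 untreated and 181, 6610.3 and 6974 after PMA. Its differences were 2.49, 6.48 and 6.13 and its change 5.03 ± 0.57 (adjusted p = 0.00102). The PMA arrays of passages 10 and 12 were above 6000 and the one of passage 8 below 200, still above every untreated array. CXCL2 had 36.4, 27.9 and 54.7 untreated and 65.8, 2397 and 3115 after PMA (differences 0.80, 6.28 and 5.76), CXCL3 13.4, 28 and 17.7 untreated and 36.3, 1109.8 and 1509.6 after PMA (differences 1.26, 5.17 and 6.19) and CXCL1 differences of 1.17, 5.16 and 5.10. The fitted changes were 4.28 ± 0.78, 4.21 ± 0.69 and 3.81 ± 0.60, with adjusted p = 0.0122, 0.00806 and 0.00631. None of these 3 passed without passage 10 or without passage 12, where adjusted p lay between 0.0733 and 0.136. CXCL8 passed in each of those fits. CCL20, which attracts CCR6-bearing lymphocytes and dendritic cells, behaved otherwise. It had 2.78, 530.3 and 343 untreated and 206, 7014 and 7314 after PMA. The untreated array of passage 8 was near 0, while the untreated arrays of passages 10 and 12 already stood above the PMA array of passage 8. Within passages the differences were 5.18, 3.72 and 4.40, and the blocked change of 4.43 ± 0.28 passed (adjusted p = 5.85e-05) where the unblocked one did not (adjusted p = 0.154). Of the 14 chemokines tested 5 rose (35.7%) and 0 fell, beside 2.79% and 2.83% of all genes. CXCL1, CXCL2 and CXCL3 are close paralogues, so their probe sets may share signal.

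The promoters of CXCL8 and CXCL2 are shown because 9 of the 11 chemokine promoters in the table hold an NF-kB motif (81.8%), against 6.54% of the promoters of tested genes and 6.26% of all 27305. The NF-kB motif searched was GGNNTTTCC and the AP-1 motif was TGANTCA, each on both strands, and the matches shown do not overlap. In the CXCL8 window (chr4:73740319-73740618, plus strand, GRCh38.p14, RefSeq) capitals mark an AP-1 match that begins 137 bases before the start and an NF-kB match 91 bases before it. In the CXCL2 window (chr4:74099146-74099445, minus strand) they mark NF-kB matches 77 and 53 bases before the start.
CXCL8: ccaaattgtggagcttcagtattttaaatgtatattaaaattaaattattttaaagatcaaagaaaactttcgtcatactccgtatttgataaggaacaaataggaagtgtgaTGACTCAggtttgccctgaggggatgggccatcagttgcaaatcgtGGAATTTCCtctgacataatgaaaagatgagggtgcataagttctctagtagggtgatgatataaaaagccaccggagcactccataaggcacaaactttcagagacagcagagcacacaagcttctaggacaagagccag
CXCL2: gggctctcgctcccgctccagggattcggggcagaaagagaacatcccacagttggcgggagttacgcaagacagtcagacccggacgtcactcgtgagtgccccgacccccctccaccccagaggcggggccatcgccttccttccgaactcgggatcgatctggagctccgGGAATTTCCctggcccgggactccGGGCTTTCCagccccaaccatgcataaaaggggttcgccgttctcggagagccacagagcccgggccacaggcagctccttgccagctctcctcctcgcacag

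Of 22 interleukins and other cytokines 6 rose (27.3%) and 0 fell, beside 2.79% and 2.83% of all genes. The interleukin-1 genes named here are examples. IL1A, the membrane-bound alarm cytokine, had 13.7, 32.9 and 27.7 untreated and 145, 873 and 1339.7 after PMA and rose by 4.40 ± 0.37 (adjusted p = 0.000252), on 1 of its 2 probe sets. IL1B had 48.3, 47.4 and 46.5 untreated and 195, 258 and 443 after PMA, untreated arrays almost level and every PMA array at least 4 times higher (change 2.50 ± 0.24, adjusted p = 0.000494). The receptor IL1R1 had 30.4, 50.8 and 54.9 untreated and 109, 213 and 197 after PMA, with nearly equal differences of 1.75, 2.01 and 1.79, and the antagonist IL1RN rose by 1.66 ± 0.20. LIF, of the interleukin-6 family, differed by 0.36, 2.71 and 2.93, so its rise of 2.00 ± 0.39 lay in passages 10 and 12. IL32, a proinflammatory cytokine, moved most in passage 8. It had 7.43, 64.4 and 60.8 untreated and 188, 242 and 244 after PMA, with the untreated array of passage 8 far below the other untreated ones and the PMA arrays close together. The change was 2.67 ± 0.51 (adjusted p = 0.0157) and 1.91 without passage 8, and it did not pass without passage 10 (adjusted p = 0.0722) or without passage 12 (0.0724). Of 27 cytokine receptors and signal inhibitors 10 rose (37%) and 0 fell. SOCS3 (2.11 ± 0.35) and SOCS1 (2.53 ± 0.54), which block JAK kinases, were among them, as were OSMR (1.04 ± 0.14), IL6ST (1.04 ± 0.15) and the TRAIL receptors TNFRSF10B (1.10 ± 0.23) and TNFRSF10D (1.59 ± 0.21).

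**Figure D4:**
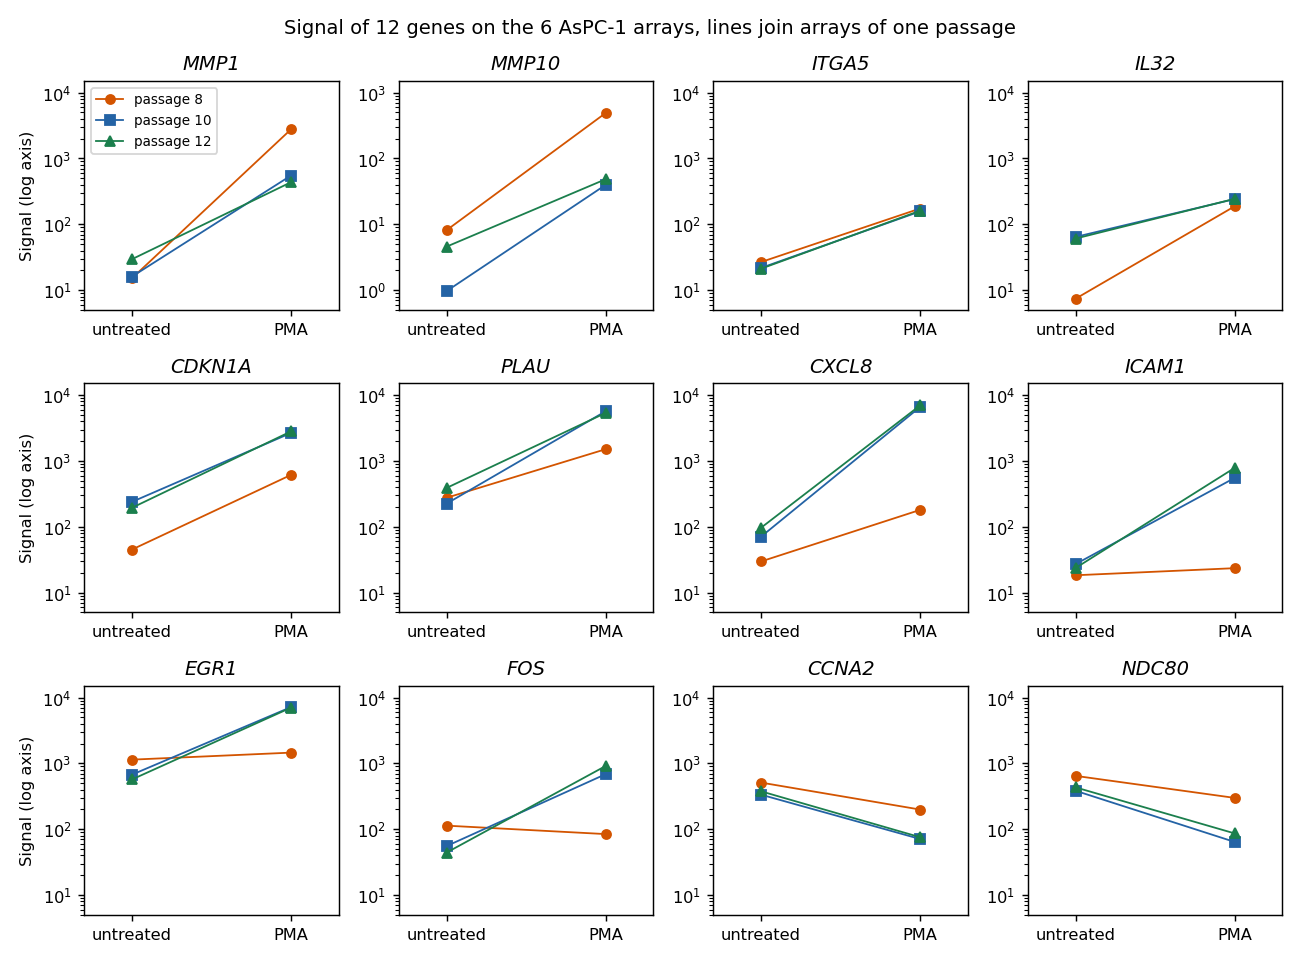
Signal (log axis; the MMP10 panel has a lower range than the others) of 12 genes on the 6 AsPC-1 arrays, untreated on the left and PMA on the right of each panel, with a line for each passage. Lines of MMP1 and MMP10 end highest in passage 8, those of ITGA5 end together near 160, and those of FOS and ICAM1 stay about level in passage 8 while passages 10 and 12 rise.

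Among proteases, the collagenase gene MMP1 and the stromelysin gene MMP10 moved more in passage 8 than in the others. The medians of the 19 tested metalloproteinase and TIMP genes were 0.01, -0.02 and 0.19. MMP1, which cuts fibrillar collagen, had 15.1, 16.1 and 29.5 untreated and 2769, 550.2 and 436 after PMA, differences of 7.26, 4.86 and 3.76 and a change of 5.29 ± 0.52 (adjusted p = 0.000494). No untreated array reached 30 and no PMA array fell below 400. MMP10, or stromelysin-2, had 8.13, 0.966 and 4.58 untreated and 489, 39.6 and 48.3 after PMA, differences of 5.47, 3.43 and 2.76 and a change of 3.88 ± 0.47 (adjusted p = 0.00159), with untreated signals under the filter level on all 3 arrays. MMP1 and MMP10 were the 2 of 19 tested metalloproteinase and TIMP genes that rose (10.5%), with 0 falling, beside 2.79% and 2.83% of all genes. The gelatinase MMP9 stayed between 27.2 and 35.4 (change -0.06 ± 0.33, adjusted p = 0.938), with a sign that turned under median centring, quantile normalization and without passage 8. The matrilysin MMP7 had 5226, 4713 and 4686 untreated and 3241, 4231 and 4252 after PMA and did not pass (adjusted p = 0.363). The inhibitor TIMP1 had differences of 1.61, 0.20 and 0.67 and did not pass (adjusted p = 0.129).

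Of 20 plasminogen and coagulation genes 6 rose (30%) and 0 fell, beside 2.79% and 2.83% of all genes. PLAU, the urokinase protease that turns plasminogen into plasmin, had 275, 224 and 389 untreated and 1506, 5674 and 5356 after PMA and rose by 3.62 ± 0.31 (adjusted p = 0.000284), with the smallest difference in passage 8 (2.44, 4.64 and 3.77). Its receptor PLAUR had 668, 447 and 491 untreated and 881, 4290.3 and 4144 after PMA, a change of 2.24 ± 0.43 (adjusted p = 0.0159) and a PMA array of passage 8 that barely cleared the untreated ones. PLAUR did not pass without passage 10 (adjusted p = 0.169) or without passage 12 (adjusted p = 0.15). PI3, the elastase inhibitor elafin, had 30.1, 22.7 and 11.7 untreated and 265, 181 and 364 after PMA and rose by 3.50 ± 0.35 (adjusted p = 0.000561). THBD, or thrombomodulin, which turns thrombin from a clotting enzyme into an anticoagulant one, had 328, 959 and 859 untreated and 1316, 6618 and 6885 after PMA and rose by 2.59 ± 0.22 (adjusted p = 0.000252). SERPINB8 (1.95 ± 0.27) and SERPINB1 (0.95 ± 0.20), both protease inhibitors, were the other two. The transmembrane protease ST14 (matriptase) had differences of -1.85, 0.01 and -0.06 and the secreted inhibitor SLPI 1.60, -0.24 and 0.47, so each moved in passage 8 only, and neither passed.

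Among adhesion genes the fibronectin receptor moved most evenly. ITGA5, its alpha chain, had 26.7, 21.8 and 21.2 untreated and 174, 157 and 161 after PMA, and its differences of 2.57, 2.69 and 2.76 were almost equal (change 2.67 ± 0.27, adjusted p = 0.000678). ITGA2, of the collagen receptor, rose by 1.23 ± 0.16 with its largest difference in passage 8 (1.79, 1.13 and 0.77). ITGA6 (0.57 ± 0.14) and ITGA1 (1.41 ± 0.34, from dim signals of 6.57, 1.27 and 8.2) made 4 rises among 16 integrin subunits (25%), with 0 falls. Over all genes 2.79% rose and 2.83% fell. The laminin-332 chain LAMB3 had 596, 457 and 457 untreated and 2099, 4328 and 3985 after PMA and rose by 2.72 ± 0.25 (adjusted p = 0.000374). The proteoglycan SDC4 differed by -0.01, 1.99 and 1.73, with no rise in passage 8. Of 20 laminin, hyaluronan and matrix genes 3 rose (15%) and 0 fell. The focal adhesion scaffold PXN (1.37 ± 0.20) and the small GTPase RHOB (1.73 ± 0.18, in this direction on 2 of 3 probe sets above the filter) rose, and the GTPase RHOU fell by 2.05 ± 0.41, from 1053, 847 and 932 to 567, 131 and 151. Of 25 epithelial junction genes limma called 0 as higher and 1 as lower (4%), near the shares of all genes. The gene that fell was the tricellular junction gene MARVELD2 (-0.67 ± 0.17, signals 429.7, 644 and 616 untreated and 354, 341 and 348 after PMA). E-cadherin (CDH1) had 691, 924 and 972 untreated and 473, 992 and 993 after PMA and did not pass (change -0.14 ± 0.15, adjusted p = 0.66), and its sign turned under median centring and without passage 8. The repressor SNAI2 rose by 1.48 ± 0.29 (differences 0.44, 1.86 and 2.15), and the epithelial splicing regulator ESRP1 fell by 1.09 ± 0.20 (differences -1.34, -0.92 and -1.01).

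Promoters of MMP10 and ITGA5 are shown as genes that rose at least 2-fold in all 3 passages and hold an AP-1 motif. Of the 81 such genes with a promoter entry 17.3% held one, against 6.57% of 213 genes higher in passages 10 and 12 but not 8, and 5.40% of the promoters of tested genes. These shares are descriptions of gene sets that were formed from the same arrays. In the MMP10 window (chr11:102780579-102780878, minus strand, GRCh38.p14, RefSeq) the match begins 67 bases before the start, and in the ITGA5 window (chr12:54419217-54419516, minus strand) it begins 6 bases before it. Capitals mark the match.
MMP10: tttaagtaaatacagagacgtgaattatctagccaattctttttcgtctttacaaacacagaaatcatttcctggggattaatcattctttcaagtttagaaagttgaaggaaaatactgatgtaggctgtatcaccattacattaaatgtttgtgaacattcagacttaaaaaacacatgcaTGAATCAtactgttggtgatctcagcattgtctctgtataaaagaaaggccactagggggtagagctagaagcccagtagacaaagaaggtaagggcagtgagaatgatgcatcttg
ITGA5: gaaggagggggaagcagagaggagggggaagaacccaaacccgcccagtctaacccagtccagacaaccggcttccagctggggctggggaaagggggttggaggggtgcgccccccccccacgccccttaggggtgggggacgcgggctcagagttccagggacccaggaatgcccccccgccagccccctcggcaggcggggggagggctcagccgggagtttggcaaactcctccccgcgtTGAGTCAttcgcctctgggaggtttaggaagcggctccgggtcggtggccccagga

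Growth-factor genes moved in both directions. Of 15 EGF-family ligands, receptors and sheddases 4 rose (26.7%) and 1 fell (6.67%), beside 2.79% and 2.83% of all genes. HBEGF, a shed ligand of the EGF receptor, had 217, 185 and 140.2 untreated and 386, 1760.4 and 2099.7 after PMA and rose by 2.64 ± 0.43 (adjusted p = 0.00806), the ligand EREG by 1.87 ± 0.41 (differences 0.32, 2.51 and 2.80) and the ligand TGFA by 1.16 ± 0.19 (differences 1.52, 0.95 and 1.00). BMP2 had 54.6, 221 and 199.8 untreated and 255, 1275 and 1256 after PMA, with differences of 2.17, 2.51 and 2.63 (change 2.44 ± 0.18, adjusted p = 0.000252). BMP4, its close relative, went the opposite way. It had 1023, 319 and 276 untreated and 655, 6.73 and 29.9 after PMA and fell by 2.92 ± 0.62 (adjusted p = 0.0236), a call lost without the block (adjusted p = 0.187). The ETS factor ETS1 had differences of 1.42, 1.61 and 1.63 over untreated signals of 504, 1409.6 and 1574, so that the groups overlapped while each passage rose by about the same amount (change 1.55 ± 0.13, adjusted p = 0.000252, without the block 0.107). The MAX partner MXD1, a repressor linked to growth arrest, had 139, 230.1 and 253 untreated and 620.1, 913 and 923 after PMA and rose by 1.99 ± 0.16 (adjusted p = 0.000252). PRDM1, the BLIMP1 repressor, rose by 3.93 ± 0.44, from 24, 42.3 and 34.5 to 147, 923 and 1165, and C11orf96 by 4.62 ± 0.66 (differences 1.66, 6.02 and 6.18).

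The cell-cycle inhibitor CDKN1A (p21) rose by nearly the same amount in every passage. It had 45.1, 239 and 194 untreated and 613, 2659.8 and 2809 after PMA, with differences of 3.68, 3.46 and 3.83 and a change of 3.66 ± 0.15 (adjusted p = 1.33e-06), which passed in all 18 alternative analyses. The untreated array of passage 8 was the lowest of the 6, and its PMA partner stayed well below the PMA arrays of passages 10 and 12. CDKN1B (p27), a related inhibitor, fell by 2.03 ± 0.36 (adjusted p = 0.0112), from 953, 600.1 and 697 to 639.9, 117 and 72.9, mostly in passages 10 and 12. Its groups overlapped, and the call was lost without the block (adjusted p = 0.08), without passage 10 (0.117) and without passage 12 (0.0978). GADD45A, a damage-response gene, had differences of -0.07, 2.85 and 3.79 and rose by 2.19 ± 0.52, a call also lost in each of these 3 fits. Of 13 inhibitors and GADD45 genes 3 rose (23.1%) and 1 fell (7.69%), beside 2.79% and 2.83% of all genes.

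Mitosis genes fell together, and here passage 8 moved as much as the others. Of 43 tested, 33 fell (76.7%) and 0 rose, beside 2.83% of all genes falling. The passage medians were -1.18, -1.01 and -1.07, and 39 of the 43 were lower in all 3 passages, against 23.1% of all genes. In passage 8, 32 were at least 2-fold lower, against 23 in passage 10 and 25 in passage 12. The number of falls in the list was 35 without passage 8, 17 without passage 10, 14 without passage 12, 17 without the block and 25 after median centring. Without passage 8, 11.5% of all genes fell. CCNA2, the cyclin of S and G2 phase, had 511, 335 and 376 untreated and 199, 71 and 75.7 after PMA and fell by 1.94 ± 0.21 (adjusted p = 0.000833). NDC80, an outer kinetochore protein, had 646, 383 and 432 untreated and 299, 64.1 and 86.4 after PMA and the mitotic kinesin KIF15 181, 105 and 104 untreated and 81.4, 21.9 and 16.3 after PMA. They fell by 1.97 ± 0.28 and 1.90 ± 0.27. TOP2A, which untangles chromosomes, had differences of -1.53, -1.35 and -1.57, HMMR, a spindle protein, -1.70, -1.17 and -1.41, and the checkpoint kinase TTK -1.32, -1.16 and -1.19. In each of these the 3 PMA arrays lay below the 3 untreated ones. The mitotic kinase CDK1 had 1889, 1515 and 1795 untreated and 782, 1012 and 1007 after PMA and its cyclin CCNB1 2010.4, 1281 and 1520.5 untreated and 888, 917 and 888 after PMA, and the PMA arrays of CCNB1 were almost level with one another. The untreated array of passage 8 had the highest signal of the 3 untreated arrays for 39 of the 43 genes (90.7%), against 40.2% of the 888 genes of the other lists, as for TOP2A (1287, 648 and 792) and ASPM (1489, 566 and 623). Members that did not pass included KIF14, whose differences were -1.60, -0.01 and 0.01, and CDC20, with -0.94, 0.31 and 0.19. In BxPC-3, where 1645 genes passed (10.2%; 670 higher, 4.16%, and 975 lower, 6.06%), 13 of the 43 fell and 0 rose, and the response differed between lines for 1. In RNA from whole cultures, fewer cells in mitosis and less of each RNA per cell cannot be told apart.

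The promoter of PLK1, the polo kinase that drives mitotic entry, is shown as an example. It was chosen after the values were seen, as the mitosis gene with the largest fall whose promoter holds both motifs of the cell-cycle type. PLK1 had 309, 113 and 126 untreated and 102, 37 and 25.6 after PMA, with differences of -1.57, -1.53 and -2.17 (change -1.76 ± 0.24, adjusted p = 0.00314). The motifs searched were the CCAAT box (CCAAT), bound by NF-Y, and the CHR (TTTGAA), an element of late cell-cycle genes bound by the DREAM and MuvB complexes, on both strands and with no overlap between them. Of 39 mitosis promoters listed 29 (74.4%) held a CCAAT box and 28 (71.8%) a CHR, against 36.3% and 11.1% of the promoters of tested genes. The AP-1 motif was in 0 of the 39. The window is chr16:23678639-23678938 on the plus strand (GRCh38.p14, RefSeq), with the CCAAT box beginning 73 and the CHR 29 bases before the start, both in capitals.
PLK1: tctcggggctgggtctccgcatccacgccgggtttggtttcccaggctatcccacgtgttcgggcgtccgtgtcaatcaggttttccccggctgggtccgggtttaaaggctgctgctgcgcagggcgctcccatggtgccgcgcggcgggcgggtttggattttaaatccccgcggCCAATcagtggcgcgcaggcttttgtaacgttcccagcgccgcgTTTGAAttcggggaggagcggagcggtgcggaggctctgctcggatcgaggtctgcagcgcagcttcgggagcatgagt

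Of 35 DNA replication genes tested 6 fell (17.1%) and 0 rose, beside 2.83% and 2.79% of all genes, with medians of -0.17, -0.86 and -0.88. Without passage 8, 22 of them fell, when 11.5% of all genes did. Without passage 10 the count was 1, and without passage 12 limma called 0. GINS1, of the replicative helicase, had 324, 328 and 349 untreated and 286, 61.3 and 76.1 after PMA and fell by 1.57 ± 0.33 (adjusted p = 0.0249), whereas the licensing factor CDT1 fell in each passage (differences -1.16, -1.02 and -1.58). DBF4, which activates the CDC7 kinase, had differences of -1.10, -0.77 and -0.88. Of 23 homologous recombination and Fanconi genes 8 fell (34.8%) and 0 rose, with 3 after median centring. They included FANCF, of the Fanconi core complex (147, 164 and 169 untreated and 99.4, 22.7 and 11 after PMA, change -2.29 ± 0.44), and BARD1, the partner of BRCA1 (-1.46 ± 0.31).

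Other genes with large falls had varied roles. PKDCC, a secreted kinase, had 1347, 674 and 742 untreated and 418, 47.8 and 102 after PMA and fell by 2.75 ± 0.42 (adjusted p = 0.00533). LFNG, a glycosyltransferase that modifies Notch, fell by 2.39 ± 0.49, from 173, 202 and 128 to 89.8, 11.7 and 21.4. CAVIN2, of caveolae, had 313, 25.9 and 35.1 untreated and 107, 3.52 and 1.12 after PMA, with the untreated array of passage 8 far above the other untreated ones, and its groups overlapped. It fell by 2.29 ± 0.35 (adjusted p = 0.00561, without the block 0.294). Without passage 12 limma called none of BMP4, PKDCC, LFNG and CAVIN2. PPFIBP2, a liprin, fell by 2.32 ± 0.39. DEPDC7 had differences of -1.12, -2.65 and -2.95, the ribosome-assembly ATPase NVL -0.66, -4.20 and -2.12, SYNRG -0.32, -3.65 and -2.84 and the zinc-finger gene ZNF488 -1.10, -3.47 and -1.95. Each of these 5 genes had its smallest difference in passage 8, and none of them passed without passage 10 or without passage 12. Of 27 WNT pathway genes 6 fell (22.2%) and 0 rose, beside 2.83% and 2.79% of all genes. The co-receptor LRP6 had 402, 269 and 217 untreated and 221, 49 and 41.2 after PMA (change -1.85 ± 0.28) and the feedback gene AXIN2 differences of -0.21, -2.92 and -3.03 on the probe set kept, 1 of 3 above the filter that was lower.

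Some members of the stress lists rose. Over all genes 2.79% rose and 2.83% fell. Of 16 heat shock and chaperone genes 5 rose (31.2%) and 0 fell, with list medians of 0.59, 0.30 and 0.52. BAG3, a co-chaperone, had 470.0, 481 and 448 untreated and 829, 1105 and 963 after PMA, the HSP40 protein DNAJA1 differences of 0.84, 0.83 and 1.04 and the HSP110 protein HSPH1 0.79, 0.70 and 0.82, nearly equal in all passages. Of 19 NRF2 target genes 4 rose (21.1%) and 0 fell, among them the cystine transporter SLC7A11 (1.23, 0.76 and 0.75) and the thioredoxin reductase TXNRD1 (1.07, 0.43 and 0.94), both with the largest difference in passage 8. Of 24 ATF4 and unfolded-protein genes 4 rose (16.7%) and 0 fell. CEBPB had 924, 1068 and 1088 untreated and 2027, 6261 and 6285 after PMA and rose by 2.07 ± 0.23, and PPP1R15A, which reverses translation arrest, had 0.47, 3.20 and 4.35, close to no change in passage 8. Of the 19 diacylglycerol and phorbol ester binding kinases and regulators, limma called 0 in either direction, beside 5.62% of all genes. So few genes cannot tell 0 calls from that share.

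Some genes moved in passage 8 alone. LGALS2, a galectin, had 783, 2262 and 2202 untreated and 56.5, 1976 and 2056 after PMA, and only its PMA array of passage 8 stood away from its partner. ACSM3, an acyl-CoA synthetase, had 206, 154 and 127 untreated and 21, 127 and 148 after PMA and GPA33, an intestinal surface antigen, 580.0, 1863 and 1301 untreated and 81.4, 1460.0 and 1815 after PMA. FUT8, the core fucosyltransferase, went up there, with 27.1, 42 and 39.4 untreated and 214, 50.3 and 35.8 after PMA. GRB14 (-2.51, 0.24 and 0.05), RIBC1 (-2.81, -0.41 and 0.30), SLC38A3 (-2.64, 0.30 and 0.50) and APOL4 (2.52, -0.24 and -0.49) completed the 8 largest, chosen by the pattern, so no test applies. On the other side, DCLK1 (-0.18, 5.66 and 2.25), KRTAP4-1 (-0.25, 3.23 and 4.16) and FAM217B (0.37, -3.22 and -4.47) stood with FOS, ICAM1, ATF3, CSRNP1 and PPP1R15A among the 8 largest in passages 10 and 12 with under 1.41-fold in passage 8.

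A response was called different from that of BxPC-3 only where the difference itself passed in the same fit, which held for 126 of 16099 genes (0.783%), 55 higher (0.342%) and 71 lower (0.441%) in AsPC-1. ITGA5 was among them, with a change of 0.10 ± 0.27 in BxPC-3 and a difference between lines of 2.57 ± 0.39 (adjusted p = 0.0223). MMP1 differed by 4.30 ± 0.73 (adjusted p = 0.0259), and BxPC-3 had untreated signals of 1234, 2055 and 1266 for it. THBD (2.35 ± 0.31), PI3 (3.00 ± 0.50), the mTOR inhibitor DDIT4 (2.93 ± 0.44) and the zinc-finger gene ZNF18 (3.15 ± 0.44, from 0.788, 0.632 and 1.87 to 14.8, 12.7 and 19.8) had more positive responses in AsPC-1. In BxPC-3, DDIT4 (-0.42, -0.67 and -0.96) and ZNF18 (-0.69, -1.12 and -1.09) were lower after PMA in every passage, though neither passed there. The scavenging chemokine receptor ACKR3 moved apart, with 20.9, 16.8 and 37.9 untreated and 30.8, 320.1 and 178 after PMA in AsPC-1 and a change of -2.24 ± 0.49 in BxPC-3, on 1 of its 2 probe sets above the filter. Lower in AsPC-1 were the cornified-envelope gene SPRR2B (difference -5.63 ± 0.48), the epidermal factor GRHL3 (-4.86 ± 0.76), MYRFL (-4.50 ± 0.54), the cytokine IL36G (-3.52 ± 0.58) and LURAP1L (-3.50 ± 0.48). Of these IL36G still rose in AsPC-1 (1.79 ± 0.41). SPRR2B lay under the filter level on every AsPC-1 array, so it was tested only through its BxPC-3 signal. The exchange factor VAV3 had a change of -3.39 ± 0.29 in BxPC-3 and 8.11, 19.9 and 12.5 untreated and 6.15, 19.3 and 19.4 after PMA in AsPC-1. The count was 673 without passage 8, 23 and 51 without passages 10 and 12, and 12 to 18 when 1 BxPC-3 passage was left out. The ACTB 3' to 5' ratio moved with treatment in BxPC-3, from 2.56, 2.95 and 4.14 untreated to 1.84, 1.99 and 2.02 after PMA, and its part in these differences was not tested. Of 17 such genes chosen for description 1, 2 and 3 kept the call without BxPC-3 passages 7, 9 and 11.

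**Figure D5:**
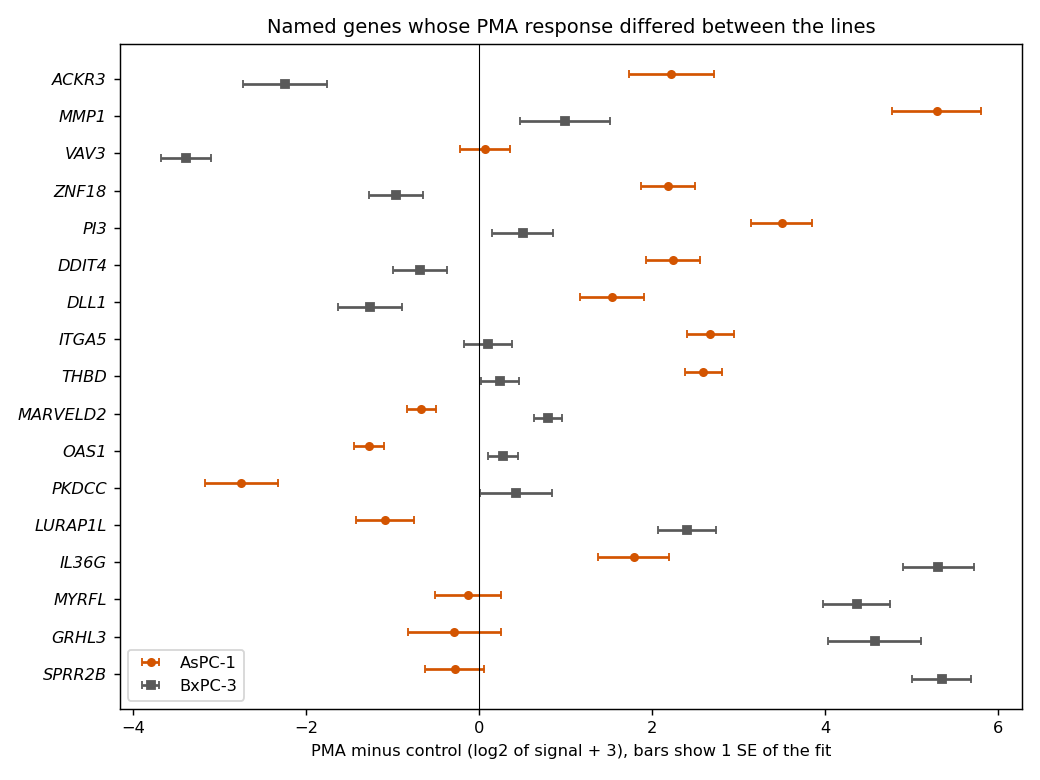
Fitted PMA minus untreated change (log2 of signal + 3) of 17 named genes whose response differed between lines, AsPC-1 as circles and BxPC-3 as squares, with bars of 1 SE. MMP1 and ITGA5 lie to the right in AsPC-1, and SPRR2B, GRHL3, MYRFL and IL36G to the right in BxPC-3.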

How the data were processed

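RNA of 3 untreated and 3 PMA-treated AsPC-1 cultures, and of the matching 6 BxPC-3 cultures, was measured on 12 one-colour arrays with 54675 probe sets. The values are signal intensities that the authors deposited after MAS5, per the submitters' processing notes. The sources used here do not give its version, and detection calls were not used. In the deposited table the mean signal, trimmed of 2% at each end, was 100.01 to 100.02 on every array, so the arrays were already scaled. Precision is limited by the number of arrays, and signals near the filter level are the least certain.

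Control probe sets (62) were left out. By the platform annotation, 41091 probe sets had 1 gene symbol, 1801 several and 11721 none, and 41037 were matched to current symbols by Entrez ID. For each of the 9699 genes with over 1 probe set, the probe set with the highest mean over all arrays was used. A pseudocount of 3 was added before log2. A gene was tested if its signal passed the 40th percentile of its array (8.18 to 10.2) on at least 3 of the 12 arrays, which left 16099 of 19775.

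limma 3.58.1 in R 4.3.3 was fitted to all 12 arrays with a term for each passage and a PMA term for each line, with an intensity trend, and p-values were adjusted by Benjamini-Hochberg over all genes tested. The spread is thus pooled over both lines, with 4 residual degrees of freedom. For a given gene the SE is therefore the same in both lines, and it is not the scatter of the AsPC-1 passages alone. CXCL2 had differences of 0.80, 6.28 and 5.76 in AsPC-1 and 1.01, 1.55 and 1.77 in BxPC-3, with an SE of 0.78 in both. Where AsPC-1 passages scatter more than those of BxPC-3, the SE and the adjusted p can understate the AsPC-1 spread. The passages are separate samples by the labels, and the smallest p an exact permutation test allows is 0.1 for 3 against 3 arrays and 0.25 for 3 pairs. Passages pair the samples by the labels. Deviations from the group means were checked within passages. Their correlations were 0.411, 0.206 and 0.157 for AsPC-1. Across passages, untreated passage 10 with PMA passage 12 gave 0.214 and untreated 12 with PMA 10 gave 0.171, as high as their own partners, and passage 8 with either of the others -0.297 to -0.228. The deviations of a group cancel over its 3 passages, so with 0.411 for passage 8 its values with the others must be negative in sum. They are no separate support for setting passage 8 apart. The values do not pair passages 10 and 12 with themselves. BxPC-3 gave -0.054, -0.126 and -0.059. The code was tested on simulated data. Figures were drawn with Python 3.11.15 and matplotlib 3.10.9.

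The samples, gene lists and tests were chosen with earlier results of these data known. Genes were named by rule: the 10 largest rises and 10 largest falls among called genes, up to 3 called members of each of 45 lists by size of change, the 8 largest changes of each of the patterns of passage 8, the 5 largest differences between lines in each direction and a fixed set of checks. Other list members were named as examples after their values were seen. Promoter sequences are RefSeq's, on GRCh38.p14.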

Additional observations from a re-analysis of the deposited data

Results flagged for a closer look

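The PMA response differed between AsPC-1 and BxPC-3 by a test of the difference itself for 126 genes. Among the genes described, 17 were of this kind, given here as AsPC-1 minus BxPC-3 on the scale of log2(signal + 3). Responses were more positive in AsPC-1 for ACKR3 (4.469), MMP1 (4.295), VAV3 (3.463), ZNF18 (3.153), PI3 (2.998), DDIT4 (2.931), the Notch ligand DLL1 (2.793, on 1 of 2 probe sets), ITGA5 (2.572) and THBD (2.351). They were more negative for SPRR2B (-5.632), GRHL3 (-4.861), MYRFL (-4.497), IL36G (-3.522), LURAP1L (-3.496), PKDCC (-3.179), the interferon-induced gene OAS1 (-1.551) and MARVELD2 (-1.465). PKDCC was dim in BxPC-3, with untreated signals of 5.35, 1.72 and 1.66. SPRR2B, GRHL3, MYRFL (8.33 to 30.4) and VAV3 (6.15 to 19.9) were dim in AsPC-1 with and without PMA. DLL1 in AsPC-1 had 0.311 to 0.841 untreated and 2.69 to 14.6 after PMA, and untreated ZNF18 and IL36G were dim there too. SPRR2B and DLL1 passed the filter only with the BxPC-3 arrays.

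BNIP3L, a mitophagy receptor, had differences of 0.08, 1.25 and 0.80 in AsPC-1 and -0.0015, -0.17 and -0.22 in BxPC-3 passages 7, 9 and 11, with responses 0.837 apart. The signs were opposite in the lines, but BxPC-3 passage 7 was level (1294 untreated and 1293 after PMA) and AsPC-1 passage 8 nearly so. For this gene the sign pattern drew attention, and the test of the difference did not pass (adjusted p = 0.234).

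Of 8183 probe sets above the filter with no single gene symbol, which enter no comparison above, 93 rose after PMA in AsPC-1 and 83 fell by the same limma test.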

How the results depend on the processing

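The 904 called genes became 133 with the AsPC-1 arrays fitted alone, 2469 with array weights, 351 with the mean of a gene's probe sets, 91 with no intensity trend, 316 with no replicate block and 568 with a 2-fold minimum, and 118 to 2785 with 1 array pair left out. The 449 higher genes became 97, 874, 204, 61, 200 and 274 under these settings in that order, 824 under median centring, and 86 to 933 with a pair left out. For the 455 lower genes the numbers were 36, 1595, 147, 30, 116 and 294, then 204 under median centring, 289 under quantile normalization and 259 with no filter, and 29 to 1852 with a pair left out. The 126 genes that differed between lines became 423 with array weights, 51 with the mean of probe sets, 83 with no filter, 17 with no trend, 79 with no replicate block and 12 to 673 with a pair left out. Fewer arrays and residual degrees of freedom enter the fits with AsPC-1 alone and with a pair left out. The fits with a pair left out each had 3 residual degrees of freedom. They gave 2785 calls without passage 8, 122 without passage 10 and 118 without passage 12. The cause of these and the other shifts was not tested. Dropping the block kept 314 of its 316 calls among the 904. Of the 124 called genes described, 124 kept the call with array weights and a stricter filter, 120 and 121 with pseudocounts of 1 and 16, 109 under quantile normalization, 101 with no filter, 62 with the mean of probe sets, 43 with AsPC-1 alone and 27 with no trend. None of these 124 changed direction. The array weights of AsPC-1 were 0.375 for passage 8, 1.33 for passage 10 and 1.14 for passage 12. That setting therefore leans the same way as leaving out passage 8 and is no separate check. CDH1 turned to 0.086 under median centring and 0.066 without passage 8 (-0.256 at the lowest with a pair left out), and MMP9 to 0.158 under median centring, 0.049 under quantile normalization and 0.018 without passage 8 (-0.211 at the lowest). MAS5 signals near background limit dim genes such as MMP10 and DLL1.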

Other observations

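In several other lists a few members passed, to be read beside 2.79% of all genes rising and 2.83% falling. Of 376 zinc-finger genes named ZNF with a number, 18 fell (4.79%) and 6 rose (1.60%), and the median difference was -0.26. Of 20 amino-acid and glucose transporters 4 rose and 0 fell, among them SLC7A5, the large neutral amino-acid carrier (1.28 ± 0.28, differences 0.34, 2.07 and 1.43), and SLC38A2 (0.54 ± 0.10, differences 0.41, 0.44 and 0.78). Of 23 mucin, CEACAM and S100 genes 4 rose and 0 fell. S100P, a calcium-binding protein common in pancreatic cancer, had 288, 753 and 856 untreated and 1249, 1889 and 1366 after PMA, with its largest difference in passage 8, and the adhesion molecule CEACAM1 differed by 0.72, 0.77 and 0.89. The protease KLK10 had 2245, 2614 and 2504 untreated and 6980.2, 4719 and 4945 after PMA and rose by 1.16 ± 0.16. Of 18 circadian clock genes 2 rose. BMAL2 had 36.1, 43 and 49.8 untreated and 319, 94.6 and 73.3 after PMA. Every PMA array lay above every untreated one, with the largest difference in passage 8 (3.04, 1.08 and 0.53). CRY1 had differences of 0.31, 1.01 and 0.80.

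Within TGF-beta and BMP signalling, 2 of 27 genes rose and 3 fell. The ubiquitin ligase SMURF1 had nearly equal differences of 0.67, 0.54 and 0.60, and SMURF2 0.46, 1.94 and 1.42. The inhibitory SMAD6 had -0.99, -0.66 and -1.49 on the probe set used, whereas the receptor TGFBR2 had -0.17, -1.66 and -1.15. Of 22 Notch and fringe genes 4 rose and 1 fell. The sheddase ADAM17, which releases EGF-family ligands, had differences of 0.09, 1.78 and 1.51, and JAG1 had 0.39, 0.50 and 1.02. Of 16 BCL2-family genes 2 rose and 0 fell, one being the survival gene MCL1 (900.2, 1045 and 922 untreated and 1493, 5445 and 5420.1 after PMA). ZFP36, which destabilizes cytokine mRNAs, rose by 0.87 ± 0.20 while its relative ZFP36L2 fell by 1.41 ± 0.29. The histone deacetylase HDAC9 had 176, 349 and 386 untreated and 554, 883 and 889.5 after PMA, with like differences of 1.64, 1.33 and 1.20. Of 26 interferon response genes 1 rose (3.85%), ISG20 (0.96, 1.01 and 1.09), and 1 fell (3.85%), OAS1 (-0.98, -1.38 and -1.46), shares near those of all genes. By limma 0 of 15 prostaglandin and eicosanoid genes passed in either direction, too few genes to tell from the 5.62% of all genes.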
